A study of Bos taurus with 6 samples.

Results

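The miR-374, miR-421 and miR-545 locus is a group of neighbouring miRNAs on the bovine X chromosome. Its members were chosen by name, as every row for bta-miR-374a, bta-miR-374b, bta-miR-421 or bta-miR-545 with any arm suffix, and 5 of the 1028 miRNAs listed in each library met this rule. These were bta-miR-421, bta-miR-374b and bta-miR-374a, with 1 row each and no arm suffix, and the arms bta-miR-545-5p and bta-miR-545-3p. The libraries hold small RNA of bovine granulosa cells in culture, the somatic cells that surround the oocyte, aspirated from ovarian follicles of 3 to 6 mm. After 24 h of culture at 37 °C, Control cells stayed at 37 °C and heat-stressed (HS) cells were moved to 42 °C for another 24 h. There were 3 libraries for each temperature, with replicate numbers 1 to 3 in their titles, and no other treatment or genotype separated the groups. The ovaries came from a slaughterhouse, and the labels call the libraries biological replicates without saying how many animals each one pooled. The p-values therefore measure the spread between these libraries. The markers that define granulosa cells are mRNAs, which small RNA libraries do not measure, so the labelled cell type was not checked here.

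A miRNA gene is transcribed as a longer RNA from which a hairpin is cut. The hairpin gives a 5′ arm and a 3′ arm, marked 5p and 3p in the names, and a protein complex loads an arm to repress matching mRNAs. Several miRNAs cut from a shared transcript can still reach different levels, since cutting, loading and decay act on each of them separately. In human and mouse these miRNAs lie in introns of FTX, a long noncoding RNA gene near XIST, which silences an X chromosome. miR-374a and miR-374b belong to the same family and share a seed, the stretch that pairs with targets, while miR-421 and miR-545 have seeds of their own. miR-421 is known for repressing ATM, a kinase of the DNA damage response. Among the members, both miR-374 rows and bta-miR-545-5p are on the study's wider list for extracellular vesicles of HS cells. This list holds miRNAs of either direction and was not limited by an adjusted p. Being on it alone thus does not mean that the study's threshold was passed. From the list the study reports a shorter set as significantly enriched in these vesicles. That set holds bta-miR-374a and bta-miR-374b but not bta-miR-545-5p. For bta-miR-374a, the study's droplet digital PCR did not match its sequencing. The vesicle libraries were not analysed here.

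In RefSeq's gene annotation (assembly ARS-UCD2.0) the genes MIR374A, MIR545, MIR374B and MIR421 all overlap LOC104970537, an lncRNA gene. The reads were mapped to an older assembly, so only names and order were used. By start position the genes follow each other as MIR374A, MIR374C, MIR545, MIR374B and MIR421, and MIR374A overlaps MIR374C. bta-miR-374c is not a member by the rule and was close to absent, with 0, 2 and 3 reads in the Control libraries and 1, 1 and 3 reads in the HS libraries, in the order of their replicate numbers. Of the miRNA genes named here, the values below thus concern all but MIR374C. Whether other genes overlap this lncRNA gene was not examined.

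The deposited values are normalised CPM, read counts brought to a common library size with the TMM method (trimmed mean of M-values). Whole reads could be recovered from them, and between 2076239 and 4590971 reads per library were assigned to the listed miRNAs. Control replicate 1 had the fewest of these reads. They are a part of each library, and the reads sequenced in all were not analysed here. A single read was worth between 0.213 and 0.488 normalised CPM, and the floor of 3 reads lay between 0.639 and 1.46, depending on the library. This floor and the intervals on shares below cover counting error only.

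First, the level of each member was described. The locus held abundant and nearly absent miRNAs side by side. Over the 6 libraries, bta-miR-374b averaged 594.9 normalised CPM, bta-miR-374a 581 and bta-miR-421 564.5, which placed them 90th, 91st and 93rd of the 1028 miRNAs. The order of these 3 did not hold from library to library. bta-miR-374a exceeded bta-miR-374b in 2 of 6 libraries and bta-miR-421 in 4 of 6, and bta-miR-374b exceeded bta-miR-421 in 4 of 6. These 4 were 1 Control library and all 3 HS libraries. The log2 difference between bta-miR-374b and bta-miR-421 averaged 0.078 ± 0.204 (SD, n = 6), and the other 2 pairs differed by less than their SD as well. By group, bta-miR-374b minus bta-miR-421 was 0.017 ± 0.287 in Control and 0.14 ± 0.105 in HS libraries (SD, n = 3 each). Each value is a number of reads of a short mature miRNA, so no division by length was made. Differences in how well each sequence is ligated to the adapters were not measured.

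Far below them lay the arms of miR-545, whose gene lies between MIR374C and MIR374B in this order. bta-miR-545-5p averaged 3.04 normalised CPM and bta-miR-545-3p 0.769, ranks 355 and 474. bta-miR-374a was between 141 and 278 times as high as bta-miR-545-5p within each library. In no library did either arm exceed 4.04, while the lowest value of the abundant members was 383.7. Neither arm reached 10 normalised CPM in any library, the minimum by which the study called a miRNA detected.

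**Figure D1:**
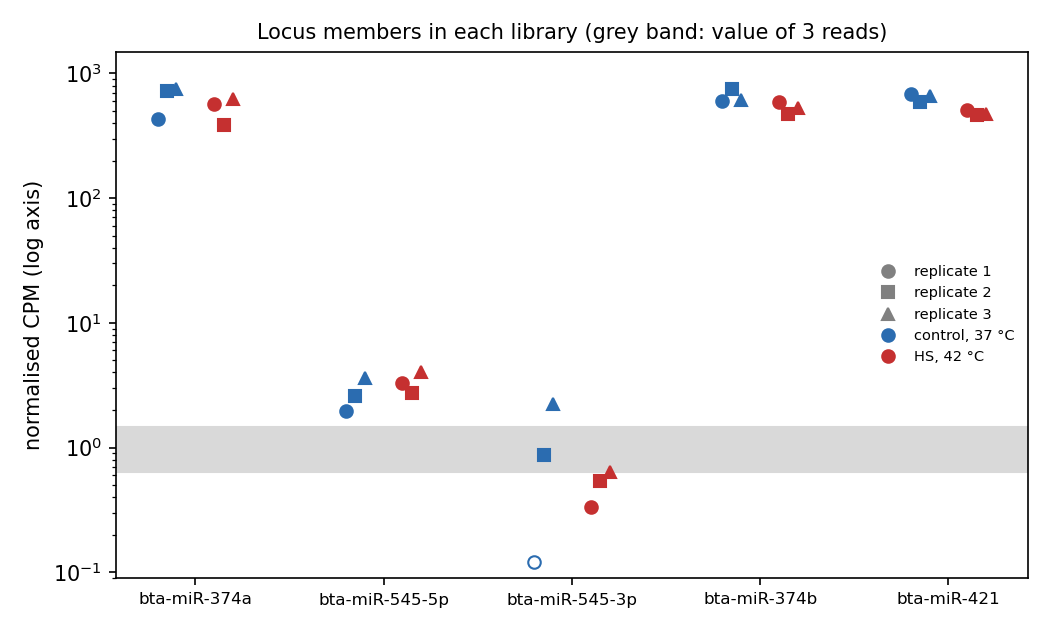
Normalised CPM on a log axis for the 5 members in each library, with Control in blue, HS in red and symbols for the replicate number. bta-miR-421 and both miR-374 members sit between 383.7 and 754.3, and the miR-545 arms at or below 4.04; the open symbol is a library listed at 0, and the grey band spans the value of 3 reads.

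All 5 members together took between 0.133% and 0.21% of the reads that a library had for the listed miRNAs. Their summed value was 1720, 2076 and 2032 normalised CPM in Control replicates 1, 2 and 3. In HS replicates 1, 2 and 3 the sum was 1676, 1323 and 1639. The sums of the groups did not overlap, but Control replicate 1 and HS replicate 1 were close, and the sums were not tested. Among single miRNAs, 10.4% of all tested had groups without overlap and with lower values in HS cells. The lowest sum was that of HS replicate 2. bta-miR-421 made up 28.6% to 39.8% of the sum, bta-miR-374b 30.3% to 36.3% and bta-miR-374a 25.2% to 38.3%.

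Next, HS was compared with Control for each member. All 3 abundant members averaged lower in HS cells and bta-miR-545-5p averaged higher, but no member passed either threshold of the comparison. The sums and levels come from bulk RNA, in which fewer cells of a type and less RNA per cell cannot be told apart. miRNAs were tested with limma on log2(value + 1), and 365 miRNAs passed the filter on low reads, among them 4 of the 5 members. Only bta-miR-545-3p was too low. The effect is given as log2FC, the log2 fold change of HS over Control. At the study's threshold, an adjusted p at or under 0.2 and a log2FC of 1 or more in either direction, 0 of the 4 members and 3.01% of all miRNAs tested were called. At an adjusted p under 0.05, 0 members and 2.19% of all were called. The edgeR quasi-likelihood test, limma-voom and the DESeq2 Wald test also called 0 members at both. By an unadjusted p under 0.05 the count was 1 member, bta-miR-421, against 14.5% of all miRNAs tested.

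bta-miR-421 had the clearest difference. Its values were 684, 593.7 and 663.9 normalised CPM in Control replicates 1, 2 and 3. In HS replicates 1, 2 and 3 they were 507, 464.2 and 474. Every HS library thus lay below every Control library, and the replicates of a group were close together. The group means were 647.2 ± 47.4 in Control and 481.7 ± 22.4 in HS cells (mean ± SD of 3 libraries). In limma the log2FC was -0.42 ± 0.126 (SE), with a 95% confidence interval from -0.72 to -0.12, so HS cells held 74.6% of the Control level. Its adjusted p was 0.196 (limma), just inside 0.2 and without the fold change that the threshold also asks for. By an adjusted p at or under 0.2 alone, 1 of the 4 members and 4.11% of all miRNAs tested were lower in HS cells.

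This adjusted p changed when a library was left out, which also leaves fewer libraries for the test. It rose to 0.284 without Control replicate 1 and to 0.507 without Control replicate 3. Without HS replicate 1, 2 or 3 it was 0.369, 0.509 and 0.479 in limma. Without Control replicate 2 it was 0.155. Across 20 alternatives the adjusted p ran from 0.0879 to 0.509 and was above 0.2 in 10 of them, while the sign of the log2FC was negative in all 20. Leaving out a library kept the log2FC between -0.48 and -0.38. Of all miRNAs tested, 26 had an adjusted p at or under 0.2 in the main fit. Without HS replicate 1, 2 or 3 there were 13, 8 and 9, and without Control replicate 1, 2 or 3 there were 27, 29 and 12.

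bta-miR-374b differed by less. Control replicates 1, 2 and 3 had 601.5, 754.3 and 616 normalised CPM. HS replicates 1, 2 and 3 had 593.6, 471.8 and 532.3. The groups did not overlap here either, but HS replicate 1 and Control replicate 1 were nearly level. The means were 657.3 ± 84.3 and 532.6 ± 60.9 (SD, n = 3 each), and the log2FC was -0.30 ± 0.155 (SE, 95% confidence interval -0.67 to 0.067, limma adjusted p = 0.439). Without Control replicate 2 the log2FC was -0.20 (limma adjusted p = 0.599), and with upper quartile factors, which moved the median of all miRNAs tested to -0.18, it was -0.49. Groups without overlap and with lower values in HS cells were found for 2 of the 4 members, bta-miR-374b and bta-miR-421, and for 10.4% of all miRNAs tested.

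bta-miR-374a, the other miRNA of the family, varied most within the groups among the 3 abundant members. It stood at 433.1, 724.1 and 746.1 normalised CPM in Control replicates 1, 2 and 3. In HS cells it stood at 571.4, 383.7 and 627.9 in the same order. The groups overlapped, since Control replicate 1 was below HS replicates 1 and 3. The mean was 634.4 ± 175 for Control and 527.7 ± 128 for HS (SD, n = 3 each). Its log2FC was -0.25 ± 0.278 (SE), and the 95% confidence interval from -0.91 to 0.40, or from 0.531 to 1.32 times the Control level, spans 0 (limma adjusted p = 0.817). Without Control replicate 1 the log2FC was -0.51, and without HS replicate 2 it was -0.041, with limma adjusted p-values of 0.352 and 0.99.

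**Figure D2:**
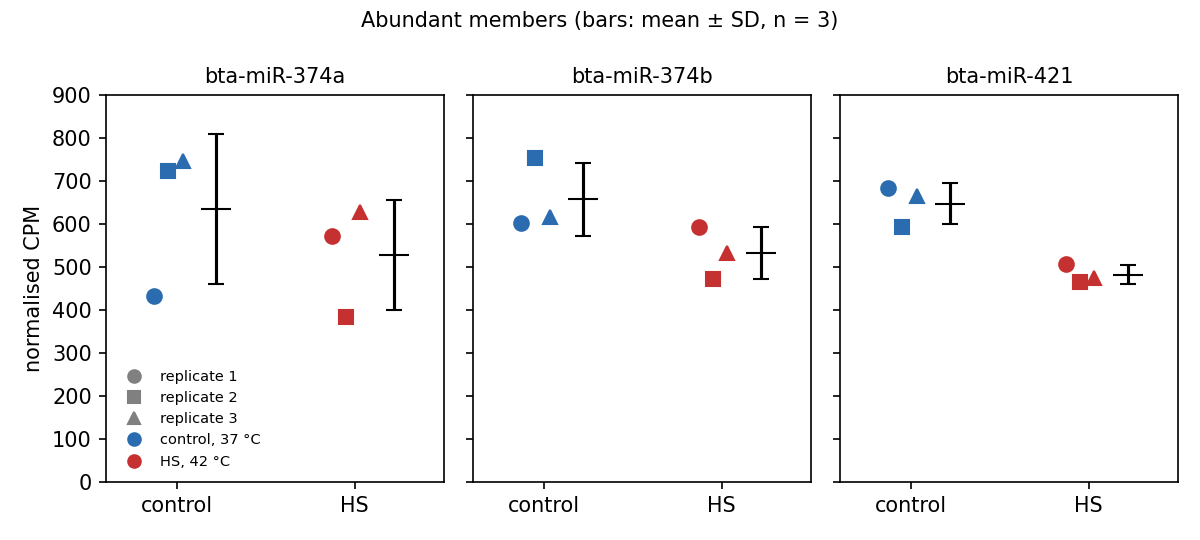
Normalised CPM of the 3 abundant members by group on a linear axis from 0, with a symbol for each library and bars for the mean ± SD (n = 3). For bta-miR-421 and bta-miR-374b every HS library lies below every Control library, from 593.7 against 507 and from 601.5 against 593.6, while for bta-miR-374a Control replicate 1 at 433.1 lies among the HS libraries.

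Between 887 and 3472 reads stood behind each value of the abundant members, for which counting alone gives an error of 1.70% to 3.36%. The coefficient of variation between replicates was 27.5% and 24.2% for bta-miR-374a in Control and HS cells. It was 12.8% and 11.4% for bta-miR-374b and 7.32% and 4.66% for bta-miR-421. On the log2 scale the SD within groups was 0.41 for bta-miR-374a, 0.17 for bta-miR-374b and 0.089 for bta-miR-421, against a median of 0.27 over all 365 miRNAs tested. bta-miR-421 thus had a smaller SD than all but 24 of the miRNAs tested, and bta-miR-374a a larger one than 267 of them.

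bta-miR-545-5p rested on few reads. Control replicates 1, 2 and 3 held 4, 12 and 13, and HS replicates 1, 2 and 3 held 10, 10 and 19. These gave 1.95, 2.61 and 3.62 normalised CPM in Control and 3.32, 2.72 and 4.04 in HS cells, and the groups overlapped. The log2FC was 0.24 ± 0.254 (SE, 95% confidence interval -0.36 to 0.84, limma adjusted p = 0.806). It was 0.084 without Control replicate 1 and 0.41 without Control replicate 3. For bta-miR-545-3p, Control replicates 1, 2 and 3 held 0, 4 and 8 reads, and HS replicates 1, 2 and 3 held 1, 2 and 3, so each HS library was at or under the floor of 3 reads. Fitted without the filter on low reads, this arm had a log2FC of -0.28 with a 95% confidence interval from -1.15 to 0.59 (limma adjusted p = 0.833).

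**Figure D3:**
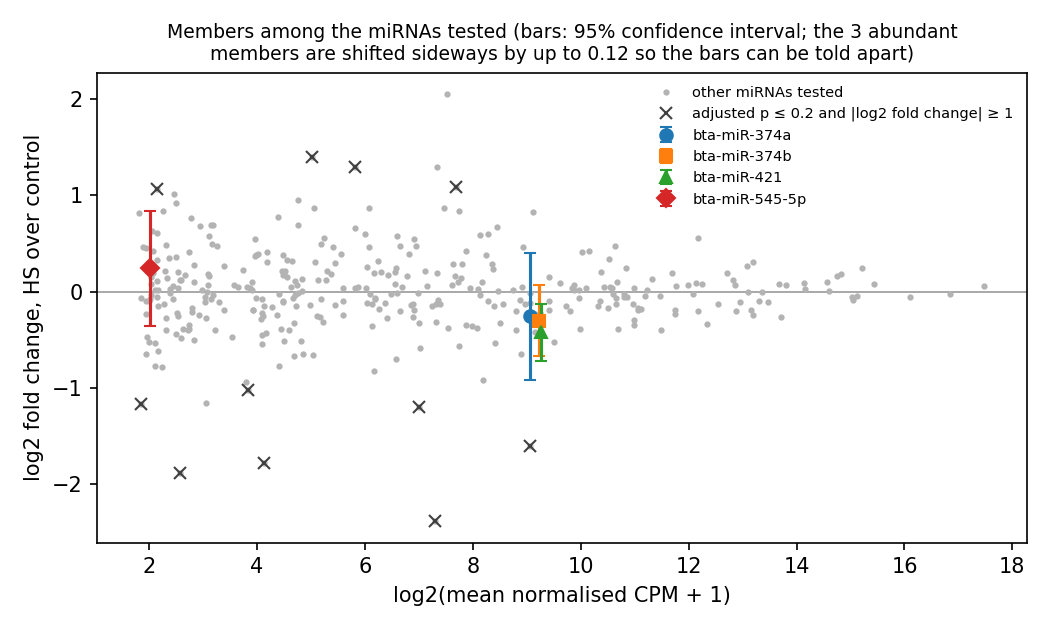
Log2 fold change of HS over Control against log2(mean normalised CPM + 1) for the 365 miRNAs tested, with the 4 tested members in colour and bars for their 95% confidence intervals. The interval of bta-miR-421 runs from -0.72 to -0.12 and stays below 0, those of the other members cross 0, and none of the 4 is among the 11 miRNAs marked as past the study's threshold.

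Whether the arms of miR-545 were used in the same proportion was examined from their reads. Over the 3 Control libraries, 29 of 41 reads (70.7%, exact binomial 95% confidence interval 54.5% to 83.9%) came from the 5′ arm. Over the 3 HS libraries it was 39 of 45 (86.7%, 73.2% to 94.9%). Single libraries ranged from 61.9% to 100% in Control and from 83.3% to 90.9% in HS cells, so the groups overlapped. The 5′ arm had more reads than the 3′ arm in each of the 6 libraries. The log2 ratio of the arms, each as log2(value + 1), was 1.01 ± 0.525 for Control and 1.53 ± 0.229 for HS (SD, n = 3 each; p = 0.2 by an exact two-sided permutation test, adjusted over the 3 ratios 0.6). With 3 libraries in each group the smallest p of this test is 0.1, so it cannot reach 0.05.

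In a ratio between abundant members of a library the scaling of the library nearly cancels, and 3 ratios were computed, that of the arms included. For the arms the added 1 is large beside the values, and their group difference of 0.52 became 0.68 when 0.5 was added to the reads instead. It was 0.27 without Control replicate 3 and 0.80 without Control replicate 1. The log2 ratio of bta-miR-374b over bta-miR-374a was 0.085 ± 0.375 for Control and 0.038 ± 0.268 for HS (SD, n = 3 each). Its difference of -0.047 was smaller than the replicate spread (p = 0.9 by an exact two-sided permutation test, adjusted over the 3 ratios 0.9), and it turned positive without Control replicate 1, at 0.15, and without HS replicate 3, at 0.091. By library this ratio went from -0.28 in Control replicate 3 to 0.47 in Control replicate 1. The ratio of bta-miR-421 over bta-miR-374b was -0.017 ± 0.286 in Control and -0.14 ± 0.105 in HS cells, again within the spread (p = 0.5 by an exact two-sided permutation test, adjusted 0.75), and its difference of -0.12 ran from -0.29 without Control replicate 2 to -0.021 without Control replicate 1. The larger difference of bta-miR-421 between the groups was therefore not shown to differ from that of bta-miR-374b.

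The members were then followed across the libraries. bta-miR-374a and bta-miR-374b correlated at r = 0.67 over the 6 libraries (rho = 0.71; exact permutation p = 0.125 and 0.136). Leaving out 1 library gave r from 0.37, without HS replicate 2, to 0.80, without Control replicate 1. For bta-miR-374b and bta-miR-421 the values were r = 0.63 and rho = 0.77 (exact permutation p = 0.192 and 0.103). bta-miR-374a and bta-miR-421 gave r = 0.27 and rho = 0.37 (exact permutation p = 0.567 and 0.497). Their r was -0.16 without HS replicate 2 and 0.77 without Control replicate 1. bta-miR-545-5p and bta-miR-374a gave r = 0.56 and rho = 0.43 (exact permutation p = 0.275 and 0.419). The remaining pairs, bta-miR-545-5p with bta-miR-374b and with bta-miR-421, gave r = -0.21 and -0.45 (rho = -0.31 and -0.43; exact permutation p of r = 0.708 and 0.367, of rho = 0.564 and 0.419). Leaving out 1 library, r of bta-miR-545-5p ran from 0.35 to 0.78 with bta-miR-374a, from -0.46 to -0.030 with bta-miR-374b and from -0.80 to -0.018 with bta-miR-421, the lower end with bta-miR-374a and the upper end with bta-miR-421 both without Control replicate 1. Over the 6 pairs no adjusted p was below 0.408. Without the 2 libraries farthest from the median of the first miRNA of the pair, r was 0.57 for bta-miR-374a with bta-miR-374b, 0.86 for bta-miR-374a with bta-miR-421 and 0.79 for bta-miR-374b with bta-miR-421. It changed sign to -0.31 for bta-miR-374a with bta-miR-545-5p, and was -0.47 and -0.50 for bta-miR-545-5p with bta-miR-374b and with bta-miR-421.

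These values include the difference between the groups. When each value was centred on its group mean, r was 0.65 for bta-miR-374a with bta-miR-374b, and it turned to -0.28 for bta-miR-374b with bta-miR-421 and to -0.22 for bta-miR-374a with bta-miR-421. It was 0.88 for bta-miR-374a with bta-miR-545-5p (exact permutation within groups, p = 0.0833, adjusted over the 6 pairs 0.5). bta-miR-374a and bta-miR-545-5p were each highest in replicate 3 of both groups. No member was the closest match of another member. Among the 364 other miRNAs tested, bta-miR-374b ranked 57th by r with bta-miR-374a, and bta-miR-421 ranked 52nd by r with bta-miR-374b.

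**Figure D4:**
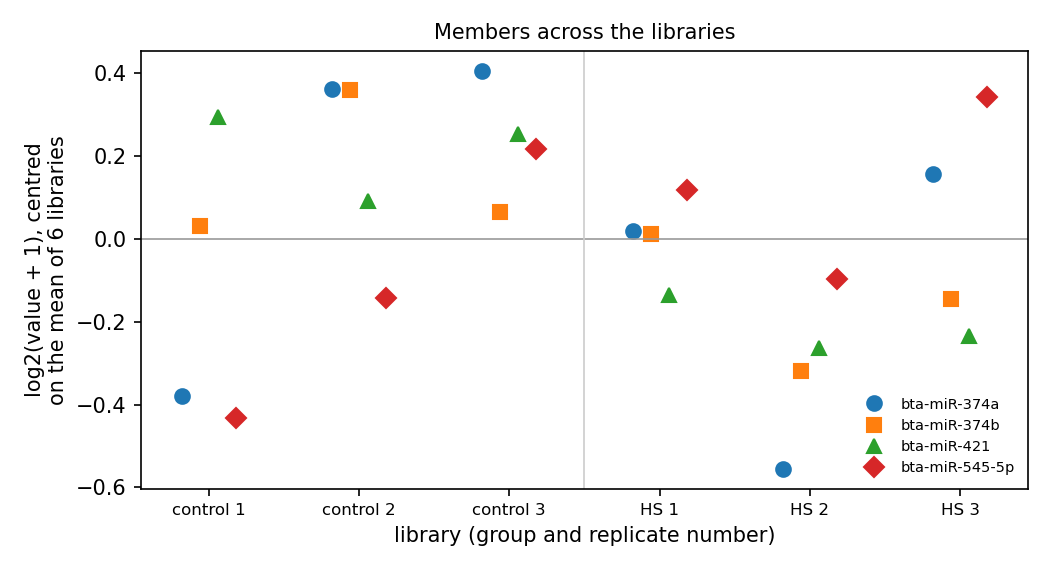
Log2(value + 1) of the 4 tested members in each library, centred on the member's mean over the 6 libraries, with the 3 Control libraries on the left and the 3 HS libraries on the right. bta-miR-421 is above its mean in each Control library and below it in each HS library, while bta-miR-374a is low in Control replicate 1 and HS replicate 2.

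The miRNAs with the most similar course over the 6 libraries lay outside the locus. For bta-miR-374a these were bta-miR-202 (r = 0.98), known for its expression in the gonads, bta-miR-362-3p (r = 0.97) and bta-miR-32 (r = 0.96). For bta-miR-374b they were bta-miR-186 (r = 0.96), bta-miR-450a (r = 0.96) and bta-miR-2285ce (r = 0.92). bta-miR-421 was closest to bta-miR-6121-3p (r = 0.97), bta-miR-12030 (r = 0.97) and bta-miR-7859 (r = 0.97), which had log2FC values of -1.78, -1.20 and -0.78 between HS and Control (limma adjusted p = 0.0117, 0.0164 and 0.118). bta-miR-545-5p was closest to bta-miR-19a (r = 0.96), bta-miR-455-5p (r = 0.96) and bta-miR-29d-5p (r = 0.92). These are the highest of 364 values over 6 libraries and are given as a description, with no test.

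Finally, the members were set beside related miRNAs. The study's vesicle list holds 20 miRNAs, of which 17 lie outside the locus and all 17 passed the filter in the cells. In limma, edgeR's quasi-likelihood test and limma-voom 0 of the 17 passed either threshold, while DESeq2 called 1, bta-miR-454, at an adjusted p under 0.05, where it called 5.48% of all miRNAs tested. In limma 2 of the 17 had an unadjusted p under 0.05, against 14.5% of all miRNAs tested. In HS cells 5 averaged higher and 12 lower, where 50.4% of all miRNAs tested averaged lower, with a median log2FC of -0.14, against -0.0015 over all miRNAs tested. The lowest was bta-miR-454, at 400.3 ± 24.6 normalised CPM for Control and 275.5 ± 18.9 for HS (SD, n = 3 each; log2FC -0.54, limma adjusted p = 0.118). The highest was bta-miR-11987, whose log2FC was 2.05 ± 0.7 (SE) at a limma adjusted p of 0.246. It varied widely between replicates, at 91.8 ± 97.2 normalised CPM for Control and 274 ± 93.4 for HS (SD, n = 3 each). The study, which used edgeR, reports it as significantly upregulated in HS cells. bta-miR-374a and bta-miR-374b, at -0.25 and -0.30, lay within the range of the list, as did bta-miR-545-5p at 0.24.

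Other polycistrons of the X chromosome, the miR-424, miR-503, miR-450 and miR-542 group and the miR-532, miR-660, miR-500, miR-362, miR-502 and miR-188 group, were represented by 15 miRNAs. The vesicle list shares 1 of them, bta-miR-500 (log2FC 0.16), so the lists are not separate sets. All 15 passed the filter, and 0 passed either threshold in limma, edgeR's quasi-likelihood test, limma-voom or DESeq2. In limma 2 of the 15 had an unadjusted p under 0.05, beside the 14.5% of all miRNAs tested. Of the 15, 5 averaged higher and 10 lower in HS cells, beside the 50.4% of all that averaged lower, with a median log2FC of -0.100. bta-miR-660 was at 1868 ± 86 for Control and 1427 ± 107 for HS (SD, n = 3 each; log2FC -0.39, limma adjusted p = 0.191), a difference close to that of bta-miR-421. The lowest and the highest were bta-miR-450a at -0.51 and bta-miR-503-5p at 0.48 (limma adjusted p = 0.477 and 0.311). At an adjusted p at or under 0.2, with no limit on the fold change, limma and edgeR's quasi-likelihood test each called 1 of the 15, beside 7.12% and 6.85% of all miRNAs tested.

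**Figure D5:**
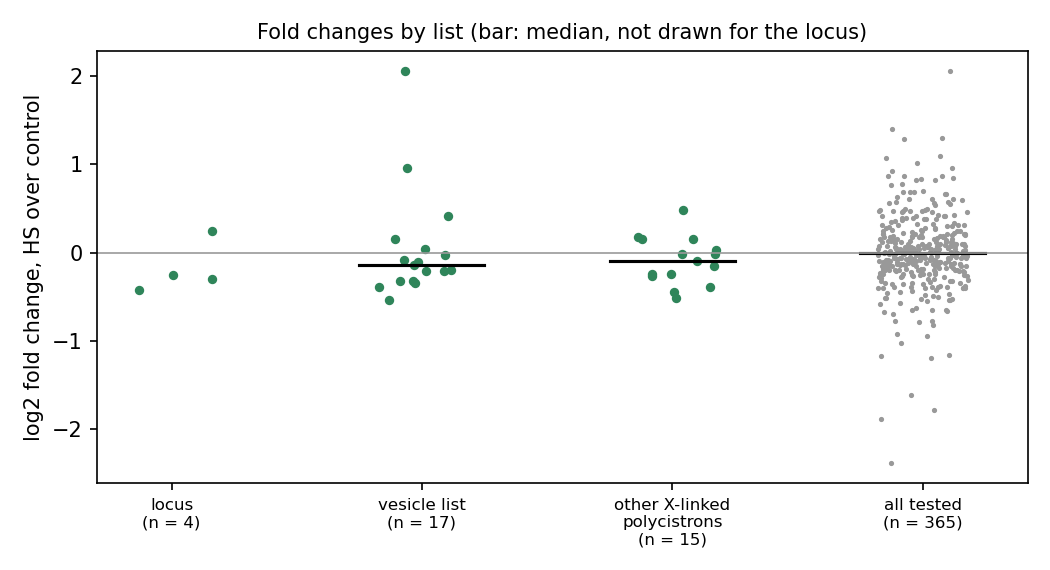
Log2 fold change of HS over Control for the 4 tested members, the 17 other miRNAs of the vesicle list, the 15 miRNAs of other X-linked polycistrons and all 365 miRNAs tested; each point is a miRNA and each bar a median, and bta-miR-500 is plotted in both lists. The members lie between -0.42 and 0.24, and the medians of the lists are -0.14 and -0.100.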

How the data were processed

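Small RNA of 6 granulosa cell libraries, 3 Control and 3 HS, was profiled. The authors collapsed reads by molecular identifier, trimmed them with Cutadapt 1.11, mapped them to UMD3.1 with Bowtie2 2.2.2, matched them to miRBase and normalised them by TMM. The deposited signal is this normalised CPM, 1 value per miRNA and library. Each library's smallest value above 0 was taken as 1 read, and 100% of the values then gave whole reads within 0.01.

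The planned test for normalised values was used: limma 3.58.1 (R 4.3.3; lmFit and eBayes with trend) on log2(value + 1), after edgeR 4.0.16 filterByExpr on the recovered reads, with Benjamini-Hochberg adjustment over all miRNAs tested. This pseudocount understates the change of low miRNAs. Ratios and correlations used exact permutation tests (Python 3.11.15, scipy 1.17.1). Correlations left out the 2 libraries farthest from the median of the first miRNA of a pair, in the order bta-miR-374a, bta-miR-374b, bta-miR-421, bta-miR-545-5p. Fits were checked on simulated reads. Alternatives were edgeR's quasi-likelihood test and DESeq2 1.42.0 on the reads, limma-voom, other scalings, filters and pseudocounts, a replicate block, and fits that each left out a library.

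The members and lists were chosen with earlier results of these data known. Named miRNAs were the members, the 3 most alike by r for each tested member, and, in each list, those with the largest and smallest fold change or past a threshold; bta-miR-660, and bta-miR-500 as a miRNA of both lists, were named after their values were seen. miRNAs that share a seed with a member were not analysed here. How the counting shared reads between similar miRNAs, such as bta-miR-374a and bta-miR-374b, or between the overlapping MIR374A and MIR374C, is not given in the sources used here. The miR-545 arms rest on at most 19 reads per library.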

Additional observations from a re-analysis of the deposited data

How the results depend on the processing

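The count of members past either threshold was 0 under each of the 20 alternatives. The log2FC of bta-miR-421, bta-miR-374b and bta-miR-374a was negative in all 20, and that of bta-miR-545-5p was positive in the 19 that could test it. For bta-miR-421 the adjusted p was no longer at or under 0.2 with DESeq2 size factors (log2FC -0.40, adjusted p = 0.234), recomputed TMM factors (-0.40, 0.203), no filter (-0.42, 0.337), limma without the trend (-0.42, 0.216) and the replicate block (-0.42, 0.203). Without a filter 755 miRNAs were tested in place of 365. For the others the cause was not tested. Leaving out a library gave -0.48 to -0.38. With the block in edgeR's quasi-likelihood test the adjusted p was 0.198. The main fit had no replicate block because the study names no covariate. Same-numbered libraries correlated in their deviations from the group means at 0.421, -0.117 and 0.616. Libraries of unlike number were not compared in this way, so these values cannot decide whether the numbers pair the samples.

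Correlations of bta-miR-421 turned negative after centring on the group means, to -0.22 with bta-miR-374a and -0.28 with bta-miR-374b, and that of bta-miR-374b with bta-miR-545-5p turned to 0.22. Leaving out a library gave -0.16 to 0.77 for bta-miR-374a with bta-miR-421 and 0.43 to 0.78 for bta-miR-374b with bta-miR-421. Without Control replicate 2 the latter had an exact permutation p of 0.0333. Upper quartile factors moved the median of all miRNAs tested to -0.18 and bta-miR-421 to -0.61. Over all miRNAs, the 11 past the first threshold ran from 8 to 16 and the 8 at an adjusted p under 0.05 from 2 to 20, the latter by DESeq2. The 26 at an adjusted p of at most 0.2 ran from 8 to 34. The edgeR quasi-likelihood test gave 10 and 7 at the first 2 of these. bta-miR-545-5p rests on 4 to 19 reads per library.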
